A study of Mus musculus with 4 samples.

Results

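The 6 genes described here encode the voltage-dependent anion channels of the mitochondrial outer membrane (Vdac1, Vdac2 and Vdac3), their outer-membrane neighbour the translocator protein (Tspo), and the hexokinases that dock on these channels (Hk1 and Hk2). They were taken by name from 21887 protein-coding genes on chromosomes 1 to 19, X and Y, and all 6 were found. Sites of Nynrin at these genes were mapped by chromatin immunoprecipitation with a Flag antibody and sequencing (ChIP-seq) in lineage-negative bone-marrow cells, which are marrow cells depleted of mature blood cells. Every library came from 8-week-old C57BL/6 mice of the genotype 3xFlag-Nynrin-Tg, which carry a Flag-tagged Nynrin transgene. There were 2 Flag ChIP libraries and 2 input libraries, and the peak list of each Flag ChIP library was analysed while the inputs were not analysed here. What drives the transgene and how many animals went into a library is not given in the sources used here. No library without the tag was used here, and marker genes of the labelled cells cannot be read from peak lists. The labels do not state whether the 2 replicates are from different animals, and their spread may be technical.

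VDAC proteins form the pores through which metabolites such as ATP, ADP and pyruvate cross the outer membrane. Hexokinases phosphorylate glucose in the first step of glycolysis, and the isoforms encoded by Hk1 and Hk2 can bind VDAC at the mitochondrial surface. VDAC, Tspo and hexokinase were all named in early models of the mitochondrial permeability transition pore, whose opening the series title links to blood stem cell function.

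A peak is a stretch that the authors' software called in 1 library, and its summit is the position of highest signal within it. Fold enrichment is the authors' ratio of ChIP signal to the caller's background at the summit. It was ranked only within its own list, as a percentile from 0 (weakest) to 100 (strongest), and its size was not compared between lists. Replicate 1 held 12702 peaks and replicate 2 held 25787, and depth per library is unknown. Positions are in mm10. A gene was called when both lists had a summit within 1000 bp of either of its ends.

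Each of the 6 genes had overlapping peaks of both replicates inside it or within 10 kb of an end, against 45.3% of all protein-coding genes. This was not adjusted for gene length, and in the gene body alone it held for 3 of 6, against 20.4%. Vdac1, Vdac2, Vdac3 and Hk2 were called, which is 4 of 6, against 31.9% of all protein-coding genes. Tspo had a summit at an end in replicate 2 alone, a state shared by 13.6% of all genes. Hk1 had none at either end, but had a strong peak of both replicates deep inside the gene, at a second transcription start. No test was made on these counts, because the genes were chosen by name with earlier results of these data known.

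RefSeq promoter windows of GRCm38.p6, the assembly behind mm10, were available for 3 of the 6 genes, Vdac1, Hk1 and Hk2, and not for Vdac2, Vdac3 or Tspo. A window runs from 250 bases before a start to 50 bases from it. The following 4 are shown 5′ to 3′ on the gene's strand because they hold the starts described below. The Hk1 windows set a start with peaks in both lists beside a start of the same gene without any, while Hk2 has 1 listed start. Both Vdac1 windows were overlapped by peaks in both lists, but the downstream Vdac1 start itself was covered in replicate 2 alone. Capitals mark CpG dinucleotides.
Hk1 downstream start, chr10:62340372-62340671, minus strand, overlapped by a peak in both lists: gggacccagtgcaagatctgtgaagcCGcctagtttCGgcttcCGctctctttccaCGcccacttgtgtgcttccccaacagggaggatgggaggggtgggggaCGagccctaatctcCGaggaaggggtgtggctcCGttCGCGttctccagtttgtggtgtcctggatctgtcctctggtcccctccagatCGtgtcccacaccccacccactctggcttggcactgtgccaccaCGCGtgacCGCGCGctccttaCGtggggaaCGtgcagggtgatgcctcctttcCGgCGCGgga
Hk1 upstream start, chr10:62379859-62380158, minus strand, overlapped by no peak in either list: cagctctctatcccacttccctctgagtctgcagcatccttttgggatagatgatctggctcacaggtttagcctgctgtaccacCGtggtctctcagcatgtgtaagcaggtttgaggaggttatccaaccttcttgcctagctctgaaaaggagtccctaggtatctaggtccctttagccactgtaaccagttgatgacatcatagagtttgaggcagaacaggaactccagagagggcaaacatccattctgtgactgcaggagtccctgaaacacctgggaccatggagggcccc
Hk2 start, chr6:82774405-82774704, minus strand, overlapped by a peak in both lists: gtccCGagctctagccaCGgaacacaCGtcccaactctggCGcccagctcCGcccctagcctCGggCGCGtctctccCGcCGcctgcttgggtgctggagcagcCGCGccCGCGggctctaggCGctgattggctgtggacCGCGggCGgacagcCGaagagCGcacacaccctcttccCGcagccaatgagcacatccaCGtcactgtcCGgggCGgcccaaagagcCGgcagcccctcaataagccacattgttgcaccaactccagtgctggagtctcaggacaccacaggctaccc
Vdac1 upstream start, chr11:52360601-52360900, plus strand, overlapped by a peak in both lists: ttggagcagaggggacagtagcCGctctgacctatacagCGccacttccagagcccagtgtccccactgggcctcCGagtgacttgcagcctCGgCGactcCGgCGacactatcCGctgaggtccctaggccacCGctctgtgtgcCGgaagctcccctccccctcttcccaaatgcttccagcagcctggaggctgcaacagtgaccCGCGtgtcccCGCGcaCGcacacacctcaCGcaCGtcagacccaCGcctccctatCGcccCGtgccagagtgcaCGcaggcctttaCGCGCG

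The Hk1 windows differed in base composition. The downstream one held 20 CpG dinucleotides and 63.3% G and C, and the upstream one held 1 CpG and 51.3% G and C. The Hk2 window held 25 CpG and the Vdac1 windows held 24 (upstream) and 26 (downstream), so the members' windows with nearby summits all had 20 or more. Across all 21263 protein-coding RefSeq windows, the share with summits within 1000 bp of the start in both lists was 61.9% where the window held 20 or more CpG and 2.35% where it held 0 to 4. The windows of Hk1, Hk2 and Vdac1 thus lay in the classes that most and least often had summits. Vdac2, Vdac3 and Tspo had no window, so their class is unknown.

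**Figure D1:**
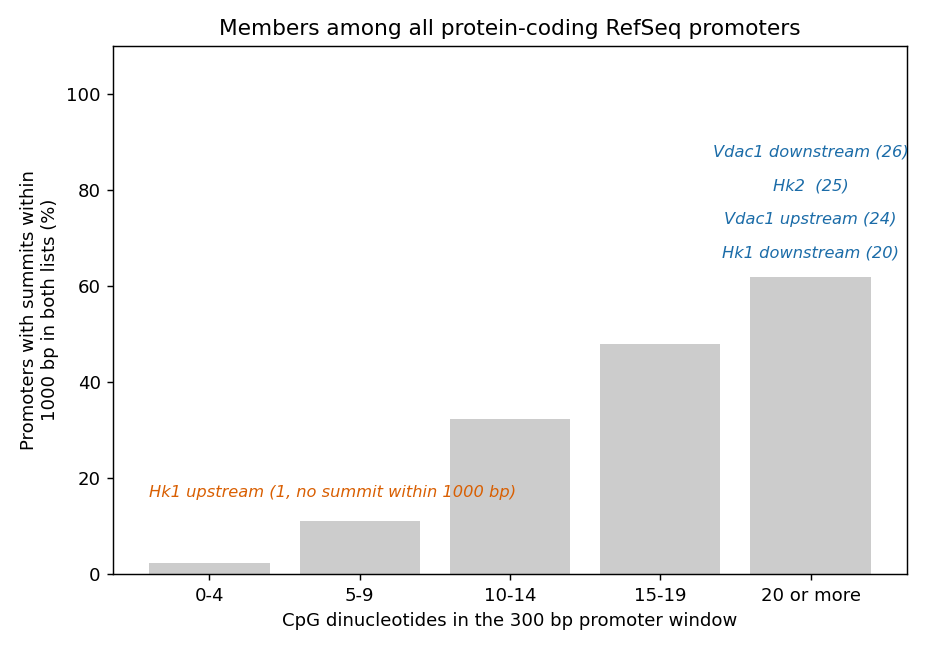
Share of protein-coding RefSeq promoters (vertical axis, percent) with summits within 1000 bp of the start in both lists, by the number of CpG dinucleotides in the 300 bp window (horizontal axis), with the members' starts written over their class and their CpG count in brackets. The share was 2.35% in the lowest class, which holds the upstream Hk1 start, and 61.9% in the highest, which holds the other 4 starts.

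Vdac3, the isoform usually described as the least channel-active of the family, had the strongest peak of the 6 genes by the lower of its percentiles in the lists, and the closest replicate summits. The gene spans 22577075 to 22593813 on chromosome 8. Its peak spanned 22593139 to 22594264 in replicate 1, and in replicate 2 it spanned 22593037 to 22594860. Fold enrichment was 6.37 in replicate 1 (percentile 93.4) and 10.1 in replicate 2 (percentile 94.9), with −log10 q of 11.1 and 25.05. Both summits fell just within the gene, 11 and 9 bp short of the higher-coordinate end and 2 bp from each other, whereas summits of overlapping peaks lay a median of 121 bp apart over all 11395 overlapping pairs. No other peak of either list lay in Vdac3 or within 10 kb of it. Strand was not available for Vdac3, so the end is named by coordinate.

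Vdac2 encodes the isoform known to hold the death effector BAK in check. It spans 21831561 to 21845879 on chromosome 14 and was called at its lower-coordinate end. Its peak spanned 21830968 to 21832606 in replicate 1, and in replicate 2 it spanned 21830631 to 21832327, with summits 206 and 282 bp outside the gene. Fold enrichment was 3.87 in replicate 1, a middling value (percentile 42.6), and 11.4 in replicate 2, a high one (percentile 97.5). The replicate 1 peak was nonetheless among the widest of its list, at 1639 bp (percentile 97.4 of widths), and the replicate 2 peak was 1697 bp wide (percentile 92.3).

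Beyond the other end of Vdac2 lay a cluster of peaks belonging in position to its neighbours. Overlapping peaks had summits at 21848921 in replicate 1 (fold enrichment 3.18) and 21848951 in replicate 2 (6.64). They lay 11 and 41 bp from the RefSeq start of Comtd1, a gene for a methyltransferase-like protein, and inside A430057M04Rik. A further overlapping pair had summits at 21853649 (4.39) and 21853865 (7.44), also inside A430057M04Rik. Replicate 2 alone had a peak with its summit at 21847947 (3.99), inside both genes. That summit lay 369 bp from the lower-coordinate end of A430057M04Rik and 963 bp from the start of Comtd1. None of the summits lay inside Vdac2 or within 1000 bp of its higher-coordinate end, the nearest being 2068 bp away.

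Vdac1 encodes the best-studied isoform and a docking site of hexokinase. It spans 52360851 to 52389397 on chromosome 11, on the plus strand, with RefSeq starts at 52360851 and 52361597. The peak at the start ran from 52360685 to 52361415 in replicate 1, where fold enrichment was 3.70 (percentile 36.2). In replicate 2 it ran from 52360226 to 52361877, where fold enrichment was 7.71 (percentile 84.5), and covered both starts. The summits lay 47 bp upstream of the first start in replicate 1 and 179 bp downstream of it in replicate 2.

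Replicate 2 also had summits at the 3′ end of Vdac1, and replicate 1 had none there. These were at 52389249, 148 bp inside the gene (fold enrichment 6.11), and at 52390103, 706 bp beyond it (3.72). Further replicate 2 peaks without a partner had summits inside the gene at 52368538 (4.78) and 52384957 (4.78), and outside it at 52351148 (3.44) and 52397900 (4.78). Near the far edge of the 10 kb flank an overlapping pair had summits at 52396626 in replicate 1 (3.94) and 52396342 in replicate 2 (8.77), 198 and 86 bp from the RefSeq start of 9530068E07Rik. That pair was thus at the start of the neighbouring gene and ranked higher in each list (percentiles 45.0 and 90.0) than the pair at the Vdac1 start.

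**Figure D2:**
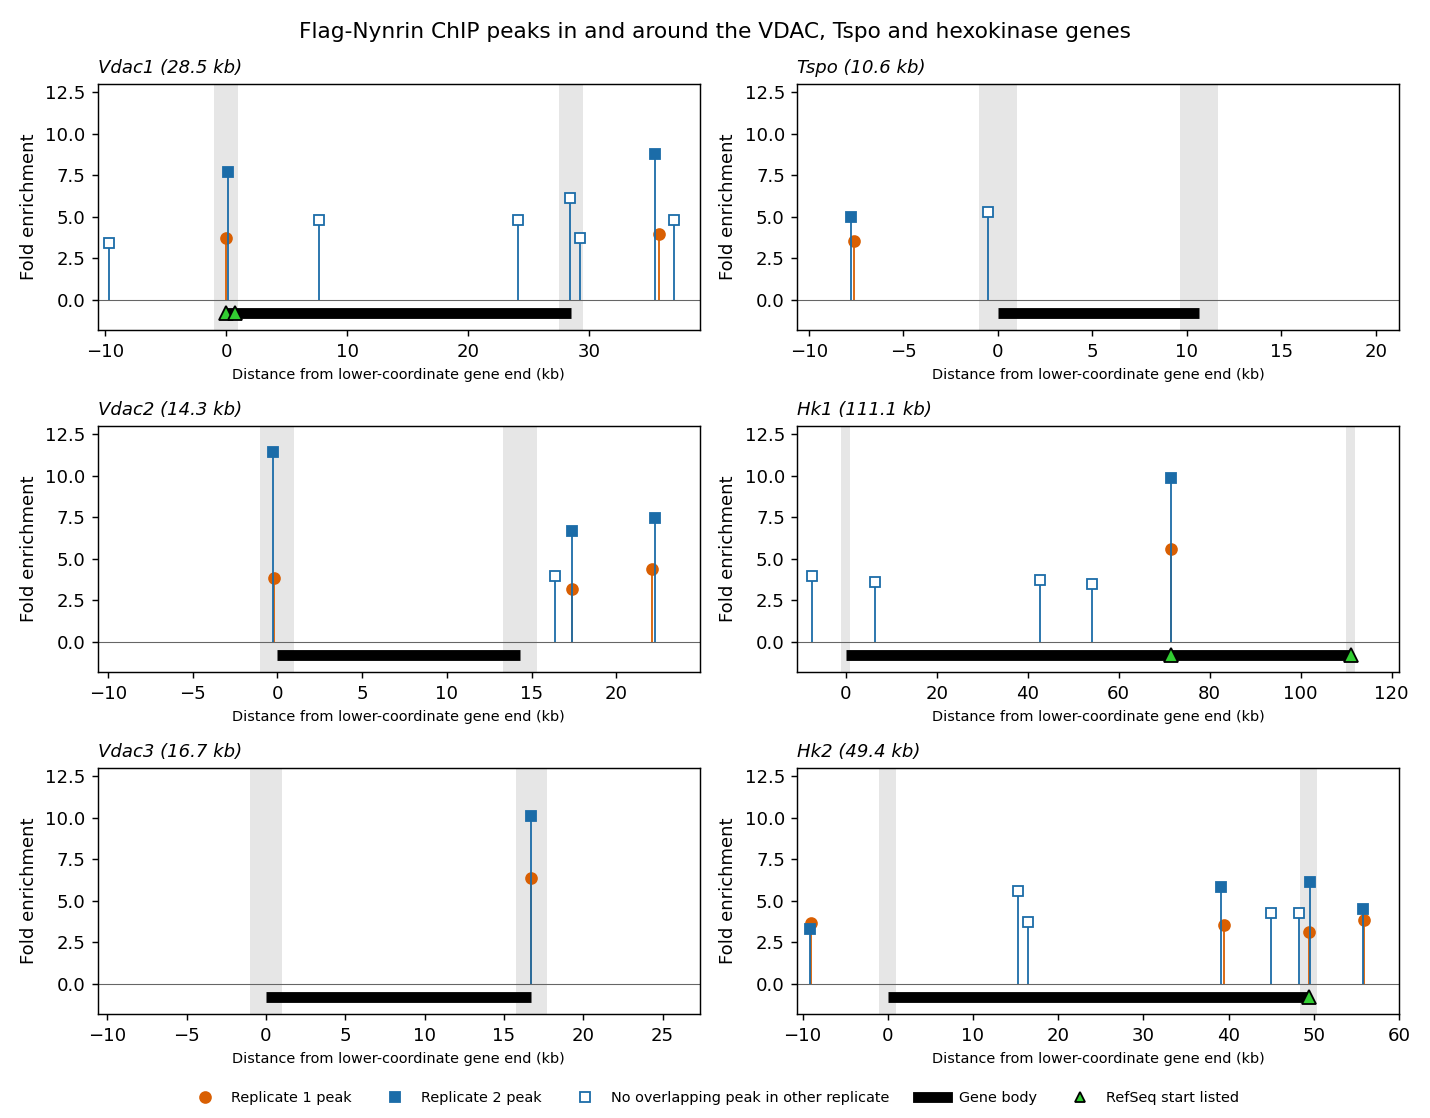
Summits of all peaks in and within 10 kb of the 6 genes. The horizontal axis gives distance from the lower-coordinate gene end in kb and the vertical axis the authors' fold enrichment, with replicate 1 as circles and replicate 2 as squares. Open squares have no overlapping peak in the other replicate, black bars are gene bodies, grey bands mark 1000 bp to each side of the ends and triangles mark RefSeq starts where listed. Vdac3 has a lone peak of both replicates at its end. Hk1 has a peak of both replicates at its internal start, and its other peaks are of replicate 2 alone.

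Tspo encodes a cholesterol- and drug-binding protein of the outer membrane. It spans 83563573 to 83574203 on chromosome 15. Replicate 2 had a peak from 83562755 to 83564253 that reached over the lower-coordinate end, with its summit 519 bp outside the gene, fold enrichment of 5.31 (percentile 62.2) and −log10 q of 7.83. Replicate 1 had no peak there, and Tspo met the rule for a called gene only when replicate 1 was left out. With a 500 bp window neither list had a summit at an end of Tspo. An overlapping pair lay farther out, with summits at 83555967 in replicate 1 (3.52, percentile 28.0) and 83555793 in replicate 2 (4.98, percentile 55.9). These were 7606 and 7780 bp from Tspo but 208 and 34 bp from the higher-coordinate end of Mcat, which encodes an enzyme of mitochondrial fatty acid synthesis. The shared peak that counts for Tspo in the 10 kb flank was therefore at the end of another gene.

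Hk1 encodes the hexokinase of brain, red cells and many other tissues, and in mouse it is known to be transcribed from alternative promoters, one of them used in sperm-forming cells. The gene spans 62268855 to 62379920 on chromosome 10, on the minus strand, and RefSeq starts were listed at 62379908 and 62340421, 39487 bp apart. At the downstream start the replicate 1 peak ran from 62339857 to 62340517 with fold enrichment of 5.61 (percentile 86.1) and −log10 q of 11.4. The replicate 2 peak ran from 62339163 to 62340931 with fold enrichment of 9.83 (percentile 94.1) and −log10 q of 24.0. Both ranked high in their list, and among the members' peaks shared by the replicates only the Vdac3 pair had a higher lower percentile. The summits lay 115 and 51 bp downstream of that start and 64 bp from each other.

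The long noncoding RNA gene Hk1os starts on the plus strand at 62340234, 187 bp from the downstream Hk1 start, and both summits lay between these facing starts. They were 72 bp (replicate 1) and 136 bp (replicate 2) downstream of the Hk1os start, so the peak cannot be assigned to either gene by position. The summits of these peaks were also the nearest to the upstream Hk1 start in each list, 39602 and 39538 bp away. The other peaks at Hk1 were of replicate 2 alone and weak, with summits inside the gene at 62275403 (fold enrichment 3.63), 62311622 (3.72) and 62322974 (3.45) and outside it at 62261353 (3.99), inside Tacr2.

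When genes were called by RefSeq starts in place of gene ends, a setting chosen after seeing the data, Hk1, Hk2 and Vdac1 were all called, which is 3 of the 3 members with a listed start, against 34.5% of the 17492 protein-coding genes with one. Hk1 was among 432 genes (2.47%) that were called by a start in both lists but had no gene-end summit in either. The Hk1 call rests on the peak between the Hk1 and Hk1os starts, which cannot be assigned to either gene by position. Of 802 genes with starts more than 10000 bp apart, 268 (33.4%) had summits in both lists at some starts and not at others, as Hk1 did, 499 (62.2%) at no start and 35 (4.36%) at every start.

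Hk2 encodes the inducible, insulin-responsive hexokinase, a known target of hypoxia and growth signalling. It spans 82725025 to 82774454 on chromosome 6, on the minus strand, and was called at its start. The peak ran from 82774068 to 82774665 in replicate 1, where fold enrichment was 3.14 (percentile 14.0), and from 82773802 to 82774990 in replicate 2, where it was 6.11 (percentile 71.9). The summits lay 58 and 86 bp upstream of the start. Hk2 was thus called by a peak low in the replicate 1 list, with −log10 q of 3.43 there, and it was not called under a −log10 q minimum of 5.

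Hk2 had 4 overlapping pairs, the most of the 6 genes, with replicate 1 percentiles from 14.0 (the pair at the start) to 41.5. Besides the pair at the start, overlapping pairs had summits inside the gene at 82764476 in replicate 1 (fold enrichment 3.52) and 82764134 in replicate 2 (5.85), upstream of the start at 82780944 (3.84) and 82780761 (4.52), and beyond the 3′ end at 82716000 (3.64) and 82715917 (3.28). The last pair lay 31 and 52 bp from the higher-coordinate end of the long noncoding RNA gene Gm32480, and its replicate 2 summit lay 987 bp from an end of Gm32534. Replicate 2 alone added summits inside the gene at 82740353 (5.58), 82741458 (3.73), 82769960 (4.25) and 82773336 (4.25). In all, Hk2 had 4 peaks in replicate 1, a number reached by 2.53% of protein-coding genes within the same reach, and 8 in replicate 2, reached by 1.21%. Vdac1 also had 8 in replicate 2. These counts grow with gene length and were not adjusted for it.

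Summit positions were set beside those at all starts with strand known. Over 7016 protein-coding RefSeq starts with summits within 1000 bp in both lists, the nearest summit lay a median of -43 bp from the start in replicate 1 and -45 bp in replicate 2. The interquartile range of the position was -166 to 74.3 bp in replicate 1 and -163 to 68.0 bp in replicate 2, with negative values upstream. Hk2 lay within this range in both lists, the downstream Hk1 start in replicate 2 and the upstream Vdac1 start in replicate 1. The Hk1 summit of replicate 1 (115 bp) and the Vdac1 summit of replicate 2 (179 bp) lay farther downstream. The downstream Vdac1 start also had these same Vdac1 summits within 1000 bp, at -793 bp in replicate 1 and -567 bp in replicate 2, outside the range in both lists.

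**Figure D3:**
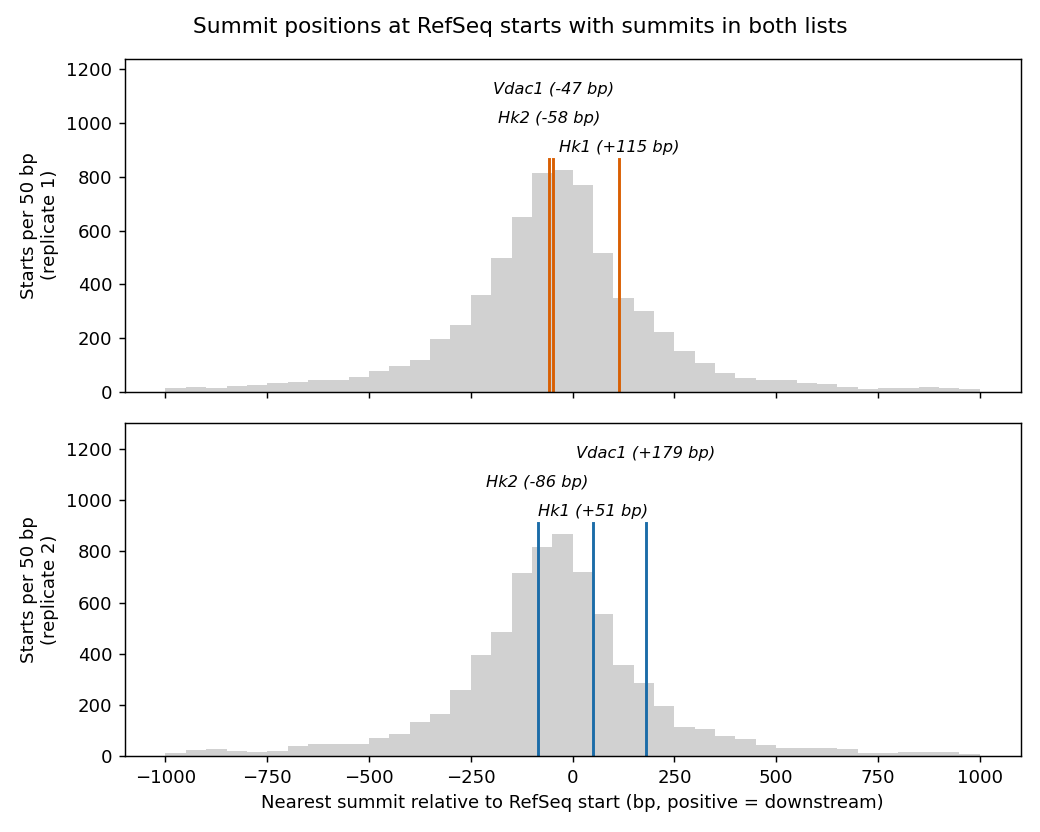
Position of the nearest summit relative to RefSeq starts (horizontal axis, bp, positive downstream) for replicate 1 (upper panel) and replicate 2 (lower panel). Grey bars count, per 50 bp, the 7016 protein-coding starts with summits in both lists, and lines mark Hk1 (downstream start), Hk2 and Vdac1 (upstream start), while the downstream Vdac1 start (-793 and -567 bp) is not marked. The Hk2 summits are upstream and the Hk1 summits downstream of the start in both lists, and the Vdac1 summits lie on opposite sides.

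Short motifs were searched in the promoter windows on both strands, as a description of letters and not of binding. The GC box (GGGCGG) was found at 3 places in the Hk2 window and at 3 in the downstream Vdac1 window, which is not printed, and in 46.2% of all 21263 protein-coding windows. The CCAAT box, spelled as its name, was found in the Hk2 window at positions -122 and -66 from the start, and in 38.2% of all windows. The ETS motif (CCGGAAG) was found in the upstream Vdac1 window at positions -105 to -99, and in 11.6% of all windows. Among windows with summits in both lists, as the Hk2 and Vdac1 windows have, these shares differed. The GC box was in 70.5% of them against 34.2% of the other windows. The CCAAT box was in 39.5% against 37.6%, and the ETS motif in 23.7% against 5.57%. The Hk1 windows held no match to any of the 8 motifs. The other 5 motifs were found in no member's window. They were the E-box (CACGTG), held by 7.84% of all windows, and the core of the NRF1 motif (GCGCATG), held by 4.8% of them. The core of the YY1 motif (AAGATGG) was held by 6.24% of all windows. The TATA box (TATAAA) was held by 12.6% of them, and the cyclic AMP response element (TGACGTC) by 3.84%.

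The 4 called members spanned most of the range of called genes. By the lower of its percentiles in the lists, Vdac3 ranked 363 of 6981 called genes, Vdac2 4273, Vdac1 4682 and Hk2 5993. In replicate 1, Vdac2, Vdac1 and Hk2 had percentiles between 14.0 and 42.6, and Vdac3 had 93.4. In replicate 2 Vdac2, Vdac1 and Hk2 had percentiles between 71.9 and 97.5, and Vdac3 had 94.9. Gene-end peaks as a whole stood higher within the longer replicate 2 list than within replicate 1. Their median fold enrichment was 6.47 against 4.66 for the whole replicate 2 list, and 4.18 against 4.04 in replicate 1. The members' difference in percentile between the lists was not tested, and a change at these genes cannot be read from it. The called genes nearest to each in percentile in the lists were Diaph1 (a formin gene) for Vdac3, Zbtb5 for Vdac2, Reep6 for Vdac1 and Rdh10 (a retinol dehydrogenase gene) for Hk2, all within 0.252 percentile points. This likeness rests on 2 values per gene.

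**Figure D4:**
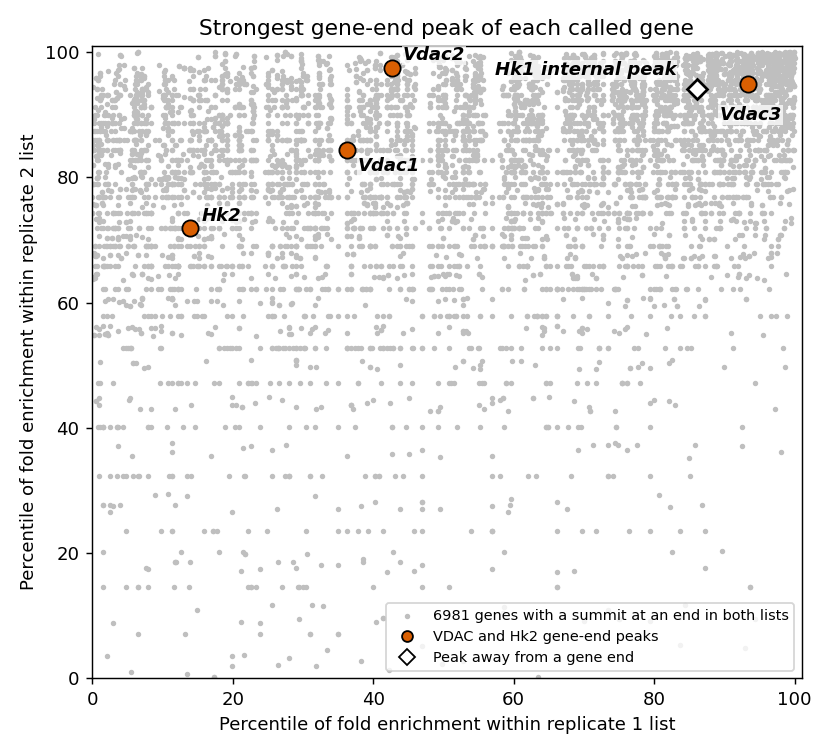
Percentile of the strongest gene-end peak by fold enrichment within replicate 1 (horizontal axis) and within replicate 2 (vertical axis). Grey points are the 6981 called genes, filled circles the 4 called members and the diamond the internal Hk1 peak, which lies at no gene end. Vdac3 (93.4 and 94.9) and the Hk1 peak (86.1 and 94.1) lie near the upper right corner, and Vdac2, Vdac1 and Hk2 lie at low or middling percentiles of replicate 1.

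Taking all 6 genes with their 10 kb flanks, replicate 1 had 12 peaks and replicate 2 had 28. All 12 replicate 1 peaks overlapped a replicate 2 peak, against 89.2% of the whole replicate 1 list, and 12 of 28 replicate 2 peaks (42.9%) overlapped a replicate 1 peak, against 41.8% of the whole replicate 2 list. The 16 replicate 2 peaks without a partner had fold enrichments of 3.44 to 6.11 (median 4.12). The median of the whole replicate 2 list was 4.66, which includes peaks with a partner. The median of its peaks without a partner was not computed. Of the 12 overlapping pairs, 4 were at an end of a member and 8 were elsewhere. A summit at an end was present for 4 members in replicate 1, against 32.6% of all genes, and for 5 in replicate 2, against 45.5%. Any summit in the gene or its flanks was present for all 6 in both lists, against 46.5% of all genes in replicate 1 and 60.8% in replicate 2. The summits nearest to the 1000 bp limit were that of replicate 2 at 706 bp from Vdac1, inside it, and that of replicate 2 at 1118 bp from the Hk2 start, outside it.

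The related genes were examined in 4 lists. Of 16 genes for other outer-membrane proteins of mitochondria, 11 were called, 4 had a gene-end summit in replicate 2 alone and 1 (Fundc1, a mitophagy receptor gene) in neither. Tomm40, the pore of the import complex, ranked above Vdac3 there, with fold enrichments of 7.32 in replicate 1 and 10.5 in replicate 2. Those with replicate 2 alone included Samm50 (3.44), Mavs (6.16) and Cisd1 (5.95). Of 14 genes for proteins that bind VDAC, 5 were called, 6 had a summit in replicate 2 alone and 3 had none. The called ones were Ppif, Itpr2, Bax, Bad and Hspa9. Hspa9 encodes the chaperone that links VDAC to calcium channels of the endoplasmic reticulum, and it had fold enrichments of 4.20 in replicate 1 and 13.8 in replicate 2. The adenine nucleotide translocator gene Slc25a5 (4.25), the calcium channel genes Itpr1 (5.58) and Itpr3 (4.26), and Bak1 (4.78) were among those of replicate 2 alone, and Slc25a4, Ckmt1 and Bcl2l1 had none.

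Of 9 genes for partners and relatives of Tspo, 4 were called, 1 had a summit in replicate 2 alone and 4 had none. The called ones were Fdxr, a reductase gene of mitochondrial steroid synthesis (6.01 in replicate 1 and 14.5 in replicate 2), Acbd3 (4.69 and 7.44), Atad3a (2.92 and 8.50), and Dbi, which encodes a ligand of Tspo (3.79 and 7.97). Cyp11a1, the first enzyme of steroid synthesis, had a summit in replicate 2 alone (4.37), and Tspo2, Tspoap1, Star and Fdx1 had none. Of 7 genes for other hexokinases and the enzymes that use glucose 6-phosphate, 1 was called, 5 had a summit in replicate 2 alone and 1 had none. The called gene was Gpi1 (5.12 and 5.31), the next enzyme of glycolysis. Hk3 (4.66), G6pdx (4.52) and Pgm1 (5.58) were among those of replicate 2 alone, and Hkdc1, the neighbour of Hk1, had none. No gene of the 4 lists had a summit in replicate 1 alone, a state of 0.672% of all genes. A summit in replicate 2 alone was a state of 13.6% of all genes. Over the lists 21 of 46 genes were called, against 31.9% of all genes. Of these 21, 11 came from the 16 outer-membrane genes. The VDAC partners gave 5 of 14, the Tspo list 4 of 9 and the hexokinase list 1 of 7. The lists are small, were not tested, and the called genes other than Tomm40 and those without a summit were named after their values were seen.

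**Figure D5:**
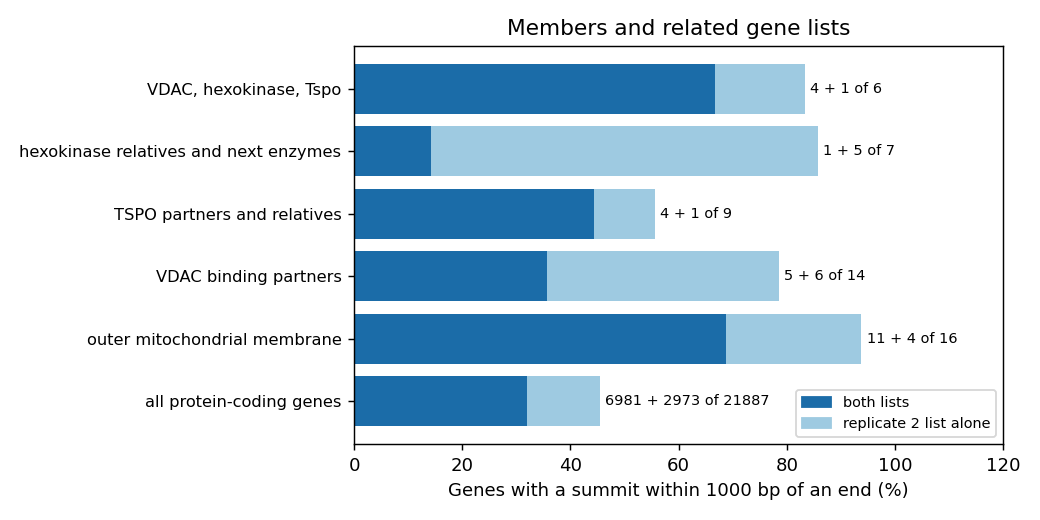
Share of genes (horizontal axis, percent) whose ends had a summit within 1000 bp in both lists (dark) or in replicate 2 alone (light), for the 6 members, the 4 related lists and all protein-coding genes. Numbers beside the bars give genes in both lists plus genes of replicate 2 alone, of all genes in the list, for example 4 + 1 of 6 for the members.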

How the data were processed

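Flag ChIP-seq libraries and inputs were made from lineage-negative cells fixed in 1% formaldehyde for 10 min, using 10 ng of DNA and 16 amplification cycles, per the labels' protocols. Per the submitters' processing notes, reads were processed on mm10 with tools that included Bowtie2 and MACS2 as well as cutadapt, Trimmomatic, FastQC and ChIPseeker. Versions, the control and the cutoff of peak calling are not given in the sources used here. Each ChIP library has its own list of peaks, deposited by the authors. Fold enrichment, as the authors deposited it, is a ratio to the caller's background. The authors' −log10 q (and the −log10 p, not used) come from the caller, with a lowest −log10 q of 1.31 for replicate 1 and 1.3 for replicate 2. The score that the authors deposited, 10 times the −log10 q, was not used. Many fold values were tied, and ties shared a mean rank.

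Only chromosomes 1 to 19, X and Y were used, which left out 14 peaks of replicate 1 and 20 of replicate 2. Overlap meant at least 1 bp. Gene bounds and start sites were RefSeq's for GRCm38.p6, and the bounds carry no strand. No test was run. The members and lists were chosen with earlier results of these data known. Named genes were the members, genes at their summits, the called gene nearest to each called member in percentile, and up to 4 genes of each related list that differed between replicates or ranked above the strongest member. Other genes of these lists were named after their values were seen. A gene that the rule selects is not reported here. Protein identities were not computed. The calling steps were checked on simulated peaks at 200 genes. Alternatives changed the cutoff, list length, window, overlap, reach and replicates. Python 3.11.15, numpy 2.4.6, pandas 2.3.3 and matplotlib 3.10.9 were used.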

Additional observations from a re-analysis of the deposited data

How the results depend on the processing

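The number of called members, 4 of 6, was 3 under a −log10 q minimum of 5 (without Hk2) and 1 under a fold enrichment minimum of 5 (Vdac3), where 21.1% and 9.52% of all protein-coding genes were called, against 31.9%. It was 4 with lists of equal length (30.1% of all genes) and with windows of 500 bp (27.9%) or 3000 bp (36.8%). It was also 4 with any base of the peak counted (33.7%) and with overlapping peaks required at the same end (31.6%). When 1 replicate was left out, it was 4 to 5 (32.6% to 45.5% of all genes). The members with a shared peak, 6 of 6 (45.3% of all genes), were 3 when overlap had to cover 50% of both peaks (Vdac2, Vdac3 and Hk2; 29.9%), 3 in the gene body alone (Vdac3, Hk1 and Hk2; 20.4%), 2 under the fold enrichment minimum of 5 (Vdac3 and Hk1; 15.4%), 4 under the −log10 q minimum of 5 (31.5%), 5 with a reach of 5 kb (41.5%), 5 with summits within 200 bp (37.8%) and 6 with equal lists (42.2%). The cutoffs and the reach remove peaks by construction. No paired analysis was possible because peak lists of 1 group were described and no groups were compared. The depth behind each list is unknown, so a site without a peak in replicate 1 cannot be read as unbound.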
